A study of Homo sapiens with 4 samples.

Results

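The genes of MHC class I antigen presentation were followed through 4 cultures of IMR90, a line of human lung fibroblasts, in oncogene-induced senescence, in senescence driven by a cleaved histone, and in growth. The 9 members were chosen by name: the heavy chain genes HLA-B, HLA-C, HLA-E and HLA-F, the light chain gene B2M, the peptide transporter genes TAP1 and TAP2, the tapasin gene TAPBP and the transactivator gene NLRC5. All 9 were found among the 12183 gene names compared, and all 9 were kept by the filter on low values, which asked for 1 FPKM or more in any of the libraries.

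The study asked whether a proteolytically shortened histone H3.3 starts a senescence program. The OIS culture (oncogene-induced senescence) carried a retroviral ER:RasV12 fusion and received 10 nM tamoxifen for 8 days. The H3.3cs1 late and H3.3cs1 early cultures carried a retroviral, Flag-tagged cleaved H3.3 and were harvested on day 13 and day 3 after infection. The growing culture carried the empty vector pBabe and was harvested on day 13. All 4 cultures were IMR90 cells at passage 16 in medium with serum, and each group had 1 library. No replicate check exists, so every difference describes these libraries, with no SD and no p-value. OIS differed from growing cells in vector and tamoxifen as well as in RAS, and the growing culture was 13 days old, so the cleaved histone cannot be told apart from a fresh infection or a shorter culture in the day 3 library.

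MHC class I molecules sit on nearly all nucleated cells and show fragments of the cell's own proteins to CD8 T cells. A heavy chain pairs with β2-microglobulin in the endoplasmic reticulum, where the TAP transporter delivers peptides made by the proteasome and tapasin helps to load them. Natural killer cells read the same molecules through inhibitory receptors, HLA-E through NKG2A. Interferons and NF-kappaB raise class I transcription in many cell types, and NLRC5 acts with factors bound at class I promoters. Senescent fibroblasts are known targets of natural killer and T cells.

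Levels are given in FPKM, which corrects fragment numbers for transcript length and library size, so genes can be set side by side. Differences are of log2(FPKM + 1), every fold is a ratio of FPKM + 1 unless called a plain ratio of FPKM, and rose or fell is written only of differences of 2-fold or more. Each library had between 11063 and 11271 gene names at an FPKM of at least 1. Depth estimated from loci of very low FPKM was 84.1% of the growing library in OIS, 79.6% in H3.3cs1 late and 95.9% in H3.3cs1 early, as a rough figure. Loci with no gene name held 47.4% to 57.9% of the summed FPKM, with the highest share in H3.3cs1 early. HRAS stood at 3153 FPKM in OIS, 41.9 in H3.3cs1 late, 49.8 in H3.3cs1 early and 47.4 in growing, as the label of the OIS library would have it. The 9 fibroblast markers, COL1A1 and VIM among them, summed to 5020 FPKM in OIS, 11335 in H3.3cs1 late, 6180.5 in H3.3cs1 early and 10815 in growing. Of these markers 5 fell in OIS, 0 in H3.3cs1 late and 2 in H3.3cs1 early against growing, where 8.17%, 5.47% and 3.96% of all gene names fell. None of 10 leukocyte markers reached 1 FPKM in any library (highest 0.983 FPKM).

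Not every member had a locus of its own. The only HLA-F line above 0 was a locus that joins HLA-F with neighbouring class I genes and pseudogenes, and the only TAPBP line above 0 joined it with RGL2 and ZBTB22, so these values cannot be read as those of HLA-F or TAPBP alone. Besides the line with signal, HLA-B had 5 more lines, HLA-C, HLA-E and HLA-F 6 each, TAP1 and TAP2 7 each and TAPBP 4, all listed at 0 in every library. B2M and NLRC5 had 1 line each. By RefSeq, 7 of the 9 genes lie on chromosome 6, B2M on chromosome 15 and NLRC5 on chromosome 16.

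The heavy chain genes are paralogs, and how fragments that fit several of them were treated is not given in the sources used here. Between the longest open reading frames of the GENCODE 29 transcripts, HLA-B and HLA-C were identical at 92.6% of 1089 aligned bases, HLA-B and HLA-E at 86.9%, and HLA-C and HLA-E at 87.1%. Of the 50-base windows of the HLA-B frame 1.63% were found unchanged in the HLA-C frame, and of the 100-base windows 0%. These are reference alleles, and the alleles of IMR90 were not analysed here, so a split of fragments between HLA-B and HLA-C remains uncertain.

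The upstream sequences of HLA-B and HLA-C are shown because these neighbouring paralogs stood highest in different senescent cultures. Those of B2M and TAP1 are shown as the partners they work with. Each run is the 250 bases before a RefSeq start site (GRCh38.p14), for TAP1 the first of 2 in the table, written 5′ to 3′ on the gene's strand. Capitals mark letters matched by any of 5 searches on both strands: an interferon response core (TTTC, any 2 bases, TTTC), a shorter form of it (TTTCNNTTC), the kappaB consensus, CCAAT, and TGACGC. Matches may overlap.
HLA-B (chr6:31357180-31357429, minus strand): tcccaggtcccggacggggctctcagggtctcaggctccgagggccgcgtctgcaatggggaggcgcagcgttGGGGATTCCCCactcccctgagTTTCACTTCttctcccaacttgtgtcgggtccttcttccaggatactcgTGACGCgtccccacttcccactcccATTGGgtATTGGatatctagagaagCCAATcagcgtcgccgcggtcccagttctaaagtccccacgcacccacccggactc
HLA-C (chr6:31272093-31272342, minus strand): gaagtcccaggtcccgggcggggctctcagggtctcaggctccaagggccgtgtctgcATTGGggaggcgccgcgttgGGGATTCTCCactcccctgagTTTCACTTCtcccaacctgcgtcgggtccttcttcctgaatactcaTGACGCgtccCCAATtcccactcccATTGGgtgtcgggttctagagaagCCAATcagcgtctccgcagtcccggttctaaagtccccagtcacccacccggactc
B2M (chr15:44711267-44711516, plus strand): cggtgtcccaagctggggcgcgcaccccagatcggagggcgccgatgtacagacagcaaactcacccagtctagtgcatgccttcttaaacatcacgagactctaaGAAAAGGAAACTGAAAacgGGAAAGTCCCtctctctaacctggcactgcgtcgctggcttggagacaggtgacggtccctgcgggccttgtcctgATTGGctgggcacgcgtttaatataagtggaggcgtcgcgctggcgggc
TAP1 (chr6:32853705-32853954, minus strand): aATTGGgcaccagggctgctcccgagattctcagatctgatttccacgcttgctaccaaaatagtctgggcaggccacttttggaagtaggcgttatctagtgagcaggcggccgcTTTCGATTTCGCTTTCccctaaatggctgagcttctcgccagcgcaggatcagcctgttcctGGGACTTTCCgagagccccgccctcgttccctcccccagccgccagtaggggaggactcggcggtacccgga
HLA-B and HLA-C both held the shorter response core TTTCACTTC, TGACGC and several CCAAT boxes. In the kappaB stretch HLA-B read GGGGATTCCCC and HLA-C gGGGATTCTCC, with a T in HLA-C where HLA-B had a C. HLA-B held 2 overlapping matches there and HLA-C held 1. B2M and TAP1 each held 2 overlapping matches to the interferon response core and 1 to the kappaB consensus, TAP1 at the start site shown. The 250 bases before the other TAP1 start site (chr6:32852762-32853011) held 0 matches to any of the 5 searches. Among the 35116 RefSeq windows of this length, 3.02% held the interferon response core, 6.56% held TTTCNNTTC, 9.96% held the kappaB consensus, 32.0% held CCAAT and 7.67% held TGACGC. A match describes the letters and does not show binding. Upstream sequences were matched for 7 of the 9 members, of which HLA-F, TAP2 and TAPBP also held the interferon response core.

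In OIS, HLA-B and HLA-E rose, the joined HLA-F locus lay just under the 2-fold line, and B2M, TAP1, TAP2 and NLRC5 did not pass it. In H3.3cs1 late cells HLA-C was the one member that rose. At day 3 of H3.3cs1 none of the 9 passed 2-fold in either direction. In bulk RNA, fewer cells with a transcript and less transcript per cell cannot be told apart.

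**Figure D1:**
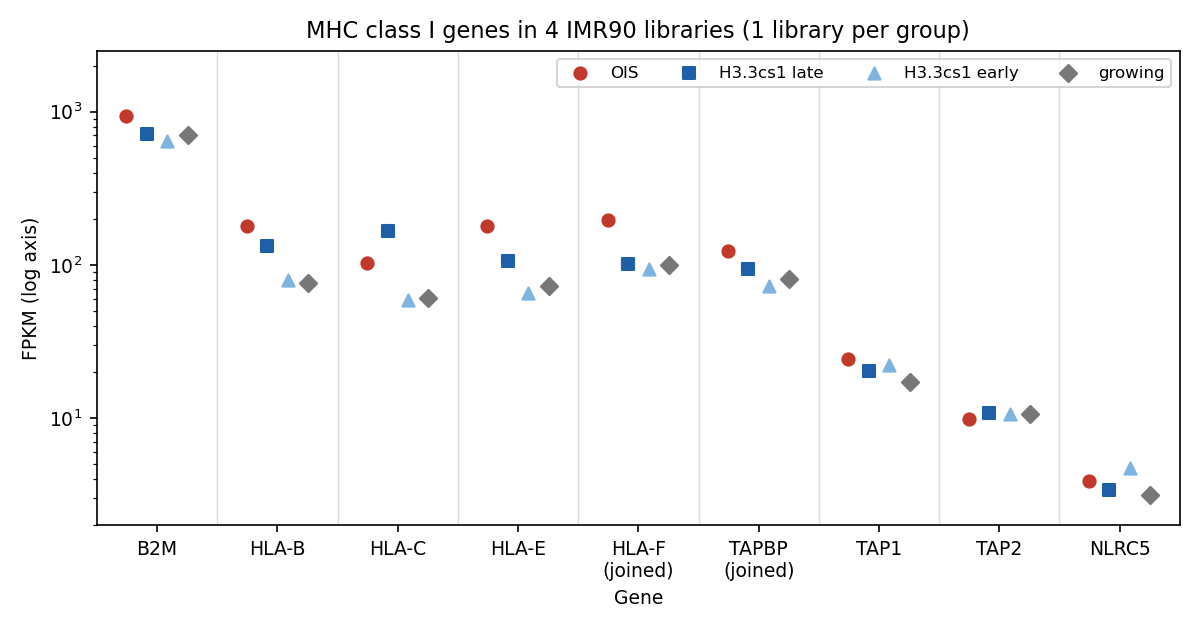
FPKM (log axis) of the 9 genes in OIS, H3.3cs1 late, H3.3cs1 early and growing, 1 point per library. HLA-B, HLA-E and the joined HLA-F locus are highest in OIS, HLA-C is highest in H3.3cs1 late, and TAP2 stays between 9.90 and 10.9 FPKM.

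B2M, the light chain shared by all class I molecules, was by far the most abundant member. It stood at 933 FPKM in OIS, 713 in H3.3cs1 late, 644 in H3.3cs1 early and 704 in growing. These levels placed it at rank 80 of 12183 gene names in OIS, rank 68 in H3.3cs1 late, rank 68 in H3.3cs1 early and rank 80 in growing. OIS was 1.33-fold above growing, and H3.3cs1 late was 1.01-fold above it, so neither passed 2-fold. After quantile normalization the difference of OIS from growing was 0, so its place above growing depends on the scaling.

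HLA-B, a classical heavy chain that presents peptides to CD8 T cells, stood at 181 FPKM in OIS, 133 in H3.3cs1 late, 79.7 in H3.3cs1 early and 75.9 in growing. The OIS and H3.3cs1 late libraries were the high ones, and H3.3cs1 early lay close to growing. The fold over growing was 2.36 in OIS, past 2-fold, and 1.74 in H3.3cs1 late, short of it. Ranked by level among the 12183 gene names, HLA-B held place 430 in OIS and 563 in H3.3cs1 late, against 763 in H3.3cs1 early and 959 in growing.

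HLA-C, a classical heavy chain that is also a major ligand of the KIR receptors of natural killer cells, stood at 102 FPKM in OIS, 167 in H3.3cs1 late, 58.8 in H3.3cs1 early and 61.1 in growing. Here H3.3cs1 late was the highest library and OIS came after it. HLA-C rose 2.70-fold in H3.3cs1 late, and its fold over growing was 1.66 in OIS.

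HLA-E, a heavy chain that presents leader peptides of other class I chains to the NKG2A receptor, stood at 180.2 FPKM in OIS, 106 in H3.3cs1 late, 65.7 in H3.3cs1 early and 73.1 in growing. OIS stood apart at the top, 2.45-fold above growing, and H3.3cs1 late was 1.44-fold above it. The joined HLA-F locus stood at 198 FPKM in OIS, 102 in H3.3cs1 late, 94.3 in H3.3cs1 early and 101 in growing. Its level in OIS was 1.96-fold that of growing, just short of 2-fold, while the other 3 libraries lay within 94.3 to 102 FPKM.

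**Figure D2:**
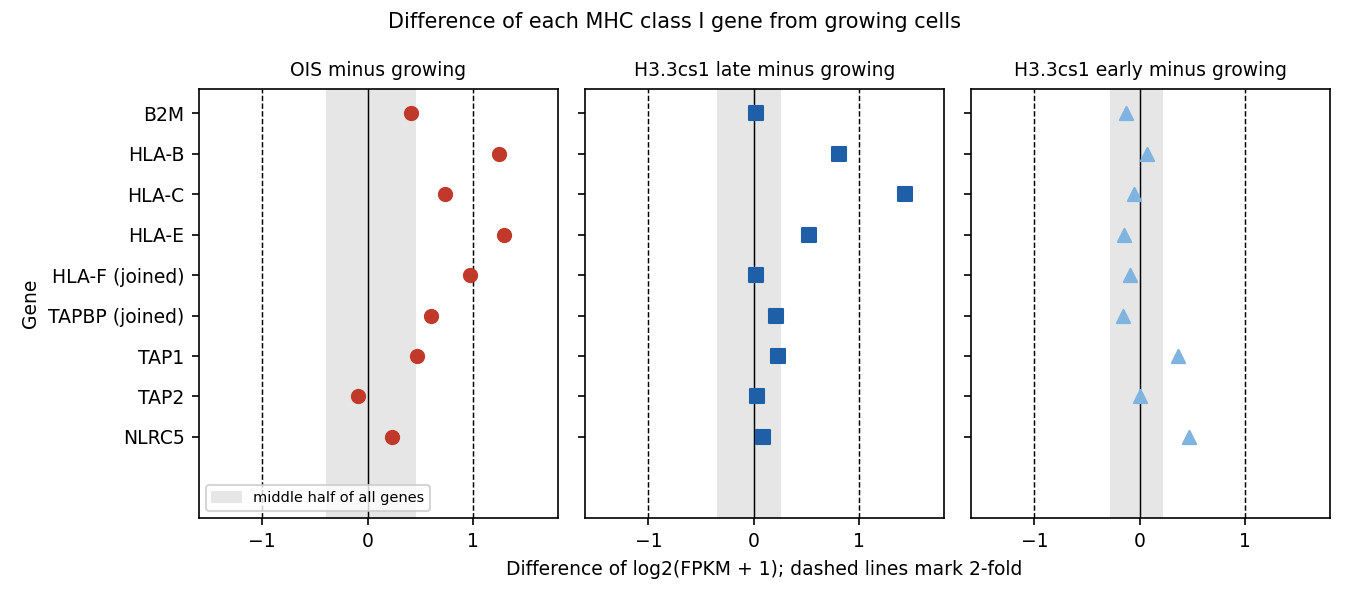
Difference of log2(FPKM + 1) from growing for each of the 9 genes in OIS, H3.3cs1 late and H3.3cs1 early, 1 point per gene. Dashed lines mark 2-fold and the grey band spans the interquartile range of all 12183 gene names. HLA-B and HLA-E in OIS and HLA-C in H3.3cs1 late lie past the line.

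HLA-B was the higher of the classical pair in OIS and HLA-C the higher in H3.3cs1 late. The plain ratio of HLA-B to HLA-C was 1.77 in OIS, 0.797 in H3.3cs1 late, 1.36 in H3.3cs1 early and 1.24 in growing. Their summed level was 283 FPKM in OIS, 300.3 in H3.3cs1 late, 138 in H3.3cs1 early and 137 in growing. As plain ratios of the sum, OIS over growing was 2.07, H3.3cs1 late over growing was 2.19, and OIS over H3.3cs1 late was 0.943. With HLA-E added, the sum over 3 heavy chains was 463 FPKM in OIS, 406 in H3.3cs1 late, 204 in H3.3cs1 early and 210.2 in growing. The plain ratio of B2M to that sum was 2.01 in OIS and 1.76 in H3.3cs1 late, against 3.15 in H3.3cs1 early and 3.35 in growing.

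**Figure D3:**
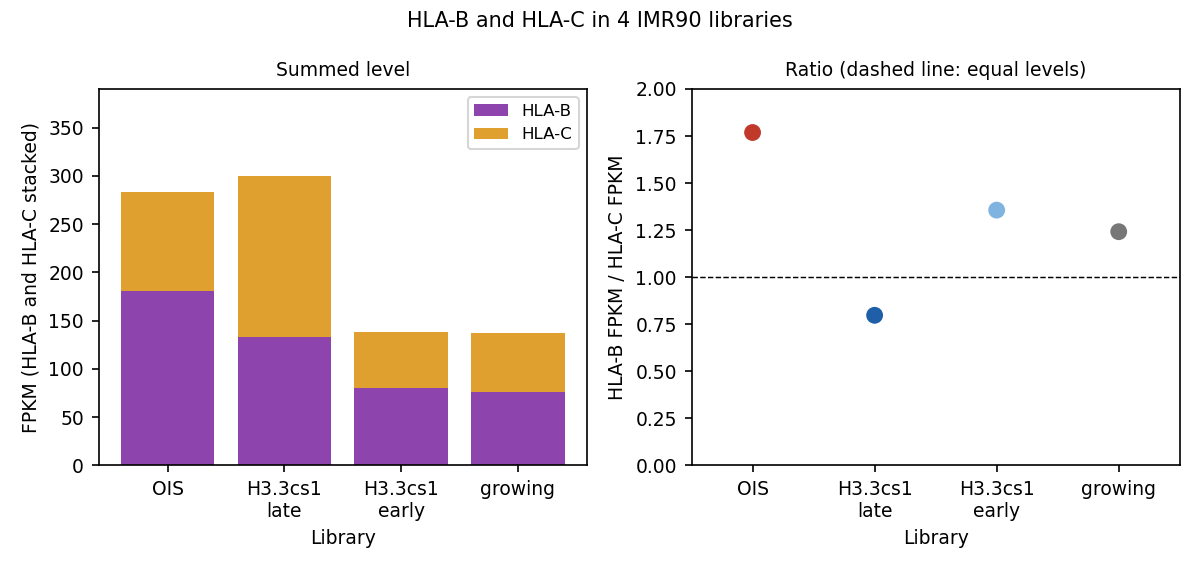
Left, FPKM of HLA-B and HLA-C stacked for each library; right, the ratio of HLA-B to HLA-C, with a dashed line at equal levels. The sums of OIS (283 FPKM) and H3.3cs1 late (300.3 FPKM) are alike, while the ratio is 1.77 in OIS and 0.797 in H3.3cs1 late.

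The peptide supply and loading members varied less. TAP1, a subunit of the peptide transporter, stood at 24.3 FPKM in OIS, 20.4 in H3.3cs1 late, 22.4 in H3.3cs1 early and 17.2 in growing, with growing the lowest library. TAP2, its partner subunit, stood at 9.90 FPKM in OIS, 10.9 in H3.3cs1 late, 10.6 in H3.3cs1 early and 10.6 in growing. The plain ratio of TAP1 to TAP2 was 2.45 in OIS, 1.87 in H3.3cs1 late, 2.11 in H3.3cs1 early and 1.62 in growing, so growing cells had the least TAP1 per TAP2. The joined locus of TAPBP, which encodes the tapasin bridge between transporter and heavy chain, stood at 124 FPKM in OIS, 94.1 in H3.3cs1 late, 72.4 in H3.3cs1 early and 81.2 in growing, and OIS was 1.52-fold above growing.

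NLRC5, the class I transactivator, was the least abundant member. It stood at 3.87 FPKM in OIS, 3.43 in H3.3cs1 late, 4.74 in H3.3cs1 early and 3.16 in growing. Its highest library was H3.3cs1 early, where its difference of 1.38-fold did not pass 2-fold. HLA-B, HLA-C and HLA-E were within 1.11-fold of growing in that library, and a link to NLRC5 was not tested.

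As a group, 2 of the 9 members rose and 0 fell in OIS, where 9.13% of all gene names rose and 8.17% fell. Their median difference was 0.60 on the log2 scale, beside 0.03 over all gene names, and 8 of 9 lay above 0, as did 52.0% of all. With the named genes of each library rescaled to 1 sum these medians were 0.36 and -0.16. In H3.3cs1 late 1 of 9 rose and 0 fell, where 3.51% of all gene names rose and 5.47% fell. The median was 0.21 beside -0.04 over all, and all 9 lay above 0, as did 45.9% of all gene names. B2M and the joined HLA-F locus lay above 0 by only 0.02 each, and with quantile normalization the HLA-F value was -0.03. At H3.3cs1 early 0 of 9 passed in either direction, where 1.4% of all rose and 3.96% fell, and the median was -0.06 beside -0.02, a sign that other scalings turned round. These comparisons share the growing library, so their differences are not independent of each other.

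In H3.3cs1 late against H3.3cs1 early, HLA-C rose 2.81-fold and was the 1 of 9 past 2-fold, where 5.47% of all gene names rose and 3.4% fell. The fold of day 13 over day 3 was 1.66 for HLA-B and 1.60 for HLA-E, short of 2-fold, and it was 0.771 for NLRC5. Between OIS and H3.3cs1 late 0 of 9 passed in either direction, where 11.2% of all were higher in OIS and 8.51% lower. The widest differences there were those of the joined HLA-F locus and of HLA-C, whose folds of OIS over H3.3cs1 late were 1.93 and 0.614.

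Genes with the pattern nearest to a member were found by the distance over the 3 differences from growing, among 9065 gene names outside the members. For HLA-B they were MARCH9, TNFAIP1, MSX1, ATPIF1 and USP20, at distances of 0.10 to 0.21 on the log2 scale. MARCH9 and MSX1 were low genes, at 5.78 and 6.42 FPKM in OIS, their highest library. At such levels log2(FPKM + 1) shrinks a change more than at the level of HLA-B, so their nearness depends on that scale. TNFAIP1 stood at 53.9 FPKM in OIS, 36.1 in H3.3cs1 late, 23.4 in H3.3cs1 early and 22.4 in growing. Only 8 gene names lay within 0.25 of HLA-B, against 405 for B2M and 204 for TAP1. B2M and TAP1 differed less from growing in OIS and H3.3cs1 late than HLA-B did. Most gene names lie near no change, so these counts partly restate the size of the differences. The nearest to B2M were SMG6, PSMB3, TXNL4A, SEPT2 and PSMD10, and the nearest to TAP1 were GRB10, STAMBP, CUL7, EIF5A2 and RNF20.

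None of 8 peptide loading chaperones and trimming peptidases passed 2-fold against growing in OIS, H3.3cs1 late or H3.3cs1 early, with medians of -0.33, -0.32 and -0.13. Over all gene names 9.13% rose and 8.17% fell in OIS, 3.51% and 5.47% in H3.3cs1 late, and 1.4% and 3.96% in H3.3cs1 early. CALR, the chaperone calreticulin, stood at 790.3 FPKM in OIS, 1117 in H3.3cs1 late, 805 in H3.3cs1 early and 1452 in growing, with growing the highest library. ERAP2, a peptidase that trims peptides for class I, stood at 7.10 FPKM in OIS, 2.80 in H3.3cs1 late, 5.94 in H3.3cs1 early and 4.32 in growing, and was 2.13-fold higher in OIS than in H3.3cs1 late.

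The immunoproteasome subunits, which replace catalytic subunits of the proteasome under interferon, differed from each other in their order of libraries. PSMB8 stood at 21.3 FPKM in OIS, 8.58 in H3.3cs1 late, 24.99 in H3.3cs1 early and 10.9 in growing, and rose at H3.3cs1 early by 2.18-fold. PSMB9, which shares a promoter region with TAP1, stood at 1.97 FPKM in OIS, 1.01 in H3.3cs1 late, 4.37 in H3.3cs1 early and 3.22 in growing, and fell in H3.3cs1 late, with a fold over growing of 0.476 in FPKM + 1. In H3.3cs1 late against H3.3cs1 early, PSMB8 and PSMB9 fell while PSMB10, read from a joined locus with LCAT and SLC12A4, rose 2.29-fold. In OIS against H3.3cs1 late, PSMB8 rose 2.33-fold and PSME2, a subunit of the PA28 activator, 2.17-fold. In all, of the 5 immunoproteasome and PA28 genes 0 passed in OIS, 1 fell in H3.3cs1 late and 1 rose in H3.3cs1 early. Of the 3 constitutive catalytic subunits 0 passed against growing in any of these 3 comparisons. Among all gene names 9.13% rose and 8.17% fell in OIS, 3.51% and 5.47% in H3.3cs1 late, and 1.4% and 3.96% in H3.3cs1 early.

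The summed level of 20 interferon-stimulated genes was 178 FPKM in OIS, 132 in H3.3cs1 late, 201.3 in H3.3cs1 early and 97.6 in growing, with H3.3cs1 early the highest library. A link between these genes and the heavy chain levels was not tested. Of the 20, 15 passed the filter on low values. Of all 20, 7 rose and 0 fell at H3.3cs1 early, 1 rose and 1 fell in H3.3cs1 late, and 3 rose and 1 fell in OIS. The rises of IFI27 were against a growing value listed at 0. Against growing, 1.4% of all gene names rose and 3.96% fell at H3.3cs1 early. These shares were 3.51% and 5.47% in H3.3cs1 late, and 9.13% and 8.17% in OIS. A single call among 20 genes in H3.3cs1 late is near the share over all gene names. ISG15, a ubiquitin-like protein, stood at 65.6 FPKM in OIS, 37.2 in H3.3cs1 late, 63.7 in H3.3cs1 early and 25.9 in growing, and rose in OIS by 2.48-fold and in H3.3cs1 early by 2.41-fold. IFIT1, an antiviral RNA-binding protein, stood at 0.201 FPKM in OIS, 0.354 in H3.3cs1 late, 4.67 in H3.3cs1 early and 0.703 in growing. Between the H3.3cs1 cultures, late against early, 0 of the 20 rose and 8 fell, IFIT1 among them. There 5.47% of all gene names rose and 3.4% fell. Among 12 genes typical of interferon-gamma, of which 7 passed the filter on low values, 3 rose and 2 fell in OIS: CXCL10, a chemokine for T cells, reached 39.0 FPKM in OIS against 0.0541 in growing, IRF1 rose, CXCL11 stood at 1.65 FPKM against a growing value listed at 0, and the guanylate-binding protein genes GBP1 and GBP3 fell 5.18-fold and 2.02-fold. In H3.3cs1 late and H3.3cs1 early 0 of the 12 passed 2-fold, the 5 below the filter included. The shares of all gene names that rose and fell were 9.13% and 8.17% in OIS. They were 3.51% and 5.47% in H3.3cs1 late, and 1.4% and 3.96% in H3.3cs1 early.

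Of 4 interferon genes, IFNB1 was listed at 0 in all 4 libraries and IFNG was listed at 0 in OIS, H3.3cs1 late and H3.3cs1 early, against 0.0232 FPKM in growing. The joined IFNE,MIR31HG locus stood at 33.2 FPKM in OIS, 4.40 in H3.3cs1 late, 8.96 in H3.3cs1 early and 14.8 in growing, and cannot be read as IFNE alone. Of 13 receptor and JAK-STAT genes 3 rose in OIS, where 9.13% of all gene names rose. These were IFNAR2 (2.31-fold) and IFNGR2 (2.42-fold), subunits of the interferon receptors, and SOCS3 (5.38-fold), an inhibitor of JAK signalling. In H3.3cs1 late and H3.3cs1 early 0 of the 13 passed, where 3.51% and 1.4% of all rose and 5.47% and 3.96% fell.

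Among factors known to act at class I promoters, 3 of 5 NF-kappaB subunits rose in OIS. Over all gene names 9.13% rose and 8.17% fell in OIS, 3.51% and 5.47% in H3.3cs1 late, and 1.4% and 3.96% in H3.3cs1 early. RELB stood at 24.96 FPKM in OIS, 2.12 in H3.3cs1 late, 3.93 in H3.3cs1 early and 5.24 in growing, a 4.16-fold rise in OIS and a level in H3.3cs1 late just short of a 2-fold fall. NFKB2 rose 2.32-fold and REL 2.11-fold in OIS, and 0 of 5 passed in H3.3cs1 late or H3.3cs1 early. Of 12 promoter binding factors IRF1, an interferon-induced activator, alone rose in OIS, to 10.6 FPKM against 4.48 in growing, and the joined ADCY10P1,NFYA locus alone fell in H3.3cs1 late, to 3.35 FPKM against 8.40 in growing. A single call among 12 genes is near the share over all gene names. RFX5, a subunit of the complex on which NLRC5 acts, stood at 10.7 FPKM in OIS, 10.8 in H3.3cs1 late, 13.7 in H3.3cs1 early and 9.98 in growing.

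**Figure D4:**
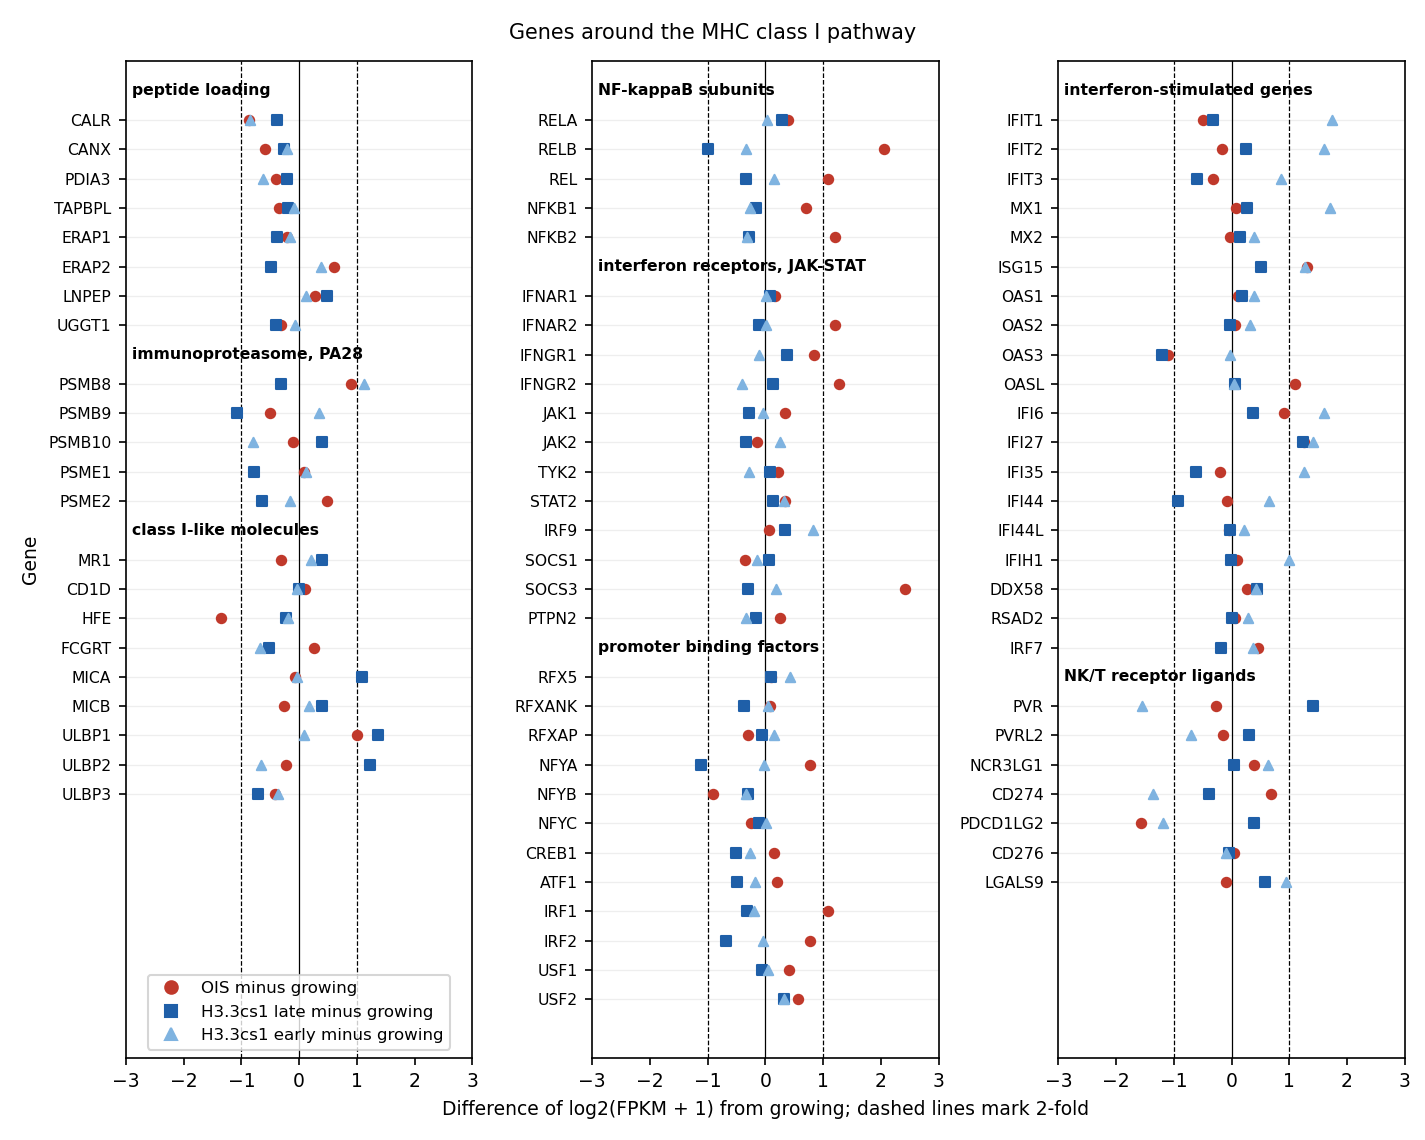
Difference of log2(FPKM + 1) from growing for genes of 8 lists around the class I pathway in OIS (circles), H3.3cs1 late (squares) and H3.3cs1 early (triangles), 1 point per gene and library; dashed lines mark 2-fold. RELB, NFKB2 and SOCS3 lie to the right in OIS, MICA and ULBP2 in H3.3cs1 late, and IFIT1 and MX1 in H3.3cs1 early.

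Among stress-induced relatives of class I, which bind the activating NKG2D receptor of natural killer cells, MICA, ULBP1 and ULBP2 were highest in H3.3cs1 late. MICA, which lies beside HLA-B, stood at 60.3 FPKM in OIS, 135 in H3.3cs1 late, 61.6 in H3.3cs1 early and 63.1 in growing, a 2.12-fold rise in H3.3cs1 late. ULBP2 stood at 8.88 FPKM in OIS, 26.0 in H3.3cs1 late, 6.34 in H3.3cs1 early and 10.5 in growing, a 2.34-fold rise in H3.3cs1 late. ULBP1 stood at 2.24 FPKM in OIS, 3.12 in H3.3cs1 late, 0.705 in H3.3cs1 early and 0.608 in growing, and rose in both OIS (2.01-fold) and H3.3cs1 late (2.56-fold). In OIS against H3.3cs1 late, MICA, ULBP2 and HFE fell and 0 rose, where 8.51% of all gene names were lower and 11.2% higher. Against growing, the 9 class I-like genes made 3 rises and 0 falls in H3.3cs1 late, and 1 rise and 1 fall, of the iron regulator HFE, in OIS. Over all gene names 3.51% rose and 5.47% fell in H3.3cs1 late, and 9.13% rose and 8.17% fell in OIS.

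Ligands of other natural killer and T cell receptors are given beside the class I genes. The joined CEACAM19,PVR locus stood at 63.0 FPKM in OIS, 204 in H3.3cs1 late, 25.3 in H3.3cs1 early and 76.1 in growing. PDCD1LG2, a ligand of the inhibitory receptor PD-1, stood at 5.03 FPKM in OIS, 22.3 in H3.3cs1 late, 6.85 in H3.3cs1 early and 16.9 in growing, and fell in OIS and H3.3cs1 early. CD274, the other PD-1 ligand, stood at 8.53 FPKM in OIS, 3.52 in H3.3cs1 late, 1.32 in H3.3cs1 early and 4.97 in growing, and fell in H3.3cs1 early. Of the 7 ligands 0 rose and 1 fell in OIS, 1 rose and 0 fell in H3.3cs1 late, and 0 rose and 3 fell in H3.3cs1 early, the third being that of PVR. Over all gene names 9.13% rose and 8.17% fell in OIS, 3.51% and 5.47% in H3.3cs1 late, and 1.4% and 3.96% in H3.3cs1 early.

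MHC class II genes, which professional antigen-presenting cells use, were near 0. Of 11 such genes, only HLA-DMA reached 1 FPKM in any library, and their summed level was 1.12 FPKM in OIS, 4.40 in H3.3cs1 late, 5.62 in H3.3cs1 early and 2.81 in growing. The 10 leukocyte markers summed to 1.41 FPKM in OIS, 0.848 in H3.3cs1 late, 0.638 in H3.3cs1 early and 0.539 in growing, with PTPRC at most 0.0396 FPKM and TYROBP listed at 0 throughout. The 8 endothelial markers summed to 22.1 FPKM in OIS, 1.33 in H3.3cs1 late, 2.41 in H3.3cs1 early and 3.09 in growing. CLDN5, TIE1 and ROBO4 rose in OIS, CDH5 was listed at 0 throughout and PECAM1 was at most 0.115 FPKM, and the part of these markers in the class I levels was not tested. The 8 epithelial markers summed to 4.23 FPKM in OIS, 4.45 in H3.3cs1 late, 15.7 in H3.3cs1 early and 4.13 in growing, with KRT19 and CLDN4 higher in H3.3cs1 early than in growing.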

How the data were processed

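Poly(A)-selected RNA of 4 IMR90 cultures was sequenced, 1 library per group. The deposited values are FPKM per locus, made by the authors. TopHat2 2.0.3, Bowtie2, Cufflinks 2.1.1 and hg19 stand in the submitters' processing notes, with no role or order. Read counts, strand and the treatment of multiply mapping fragments were not given in the sources used here, so no counting interval is printed and depth is only a rough estimate. The first line of each file does not name its own group alone, and libraries were assigned by the sample records.

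Of 26468 loci, 2310 without a gene name were left out. A symbol's lines were summed, and a joined locus gave its value to each gene in it. The 12183 gene names that reached 1 FPKM in any library were compared as log2(FPKM + 1), which understates the change of low genes, and differences of 2-fold or more were called. With 1 library per group no test was made. The 8 alternatives were a pseudocount of 0.1, a filter at 5 FPKM, no filter, rescaling to 1 sum, median centring, quantile normalization, the highest of a symbol's lines, and no joined loci. Rescaling to 1 sum used the sum over named genes, without the loci that have no gene name.

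The rule for names took the 9 members, up to 4 genes per list and comparison past 2-fold, largest first, and the 5 nearest patterns to HLA-B, B2M and TAP1 (level of at least 5 FPKM in a library and above 0 in all). The text gives part of these, some list genes are not reported here, and CALR, RFX5, IFNB1, IFNG and marker genes were named after their values were seen. The members and lists were chosen with earlier results of these data known. Promoter sequences come from RefSeq (GRCh38.p14), a build other than that of the files. Python 3.11.15, pandas 2.3.3, NumPy 2.4.6 and matplotlib 3.10.9 were used.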

Additional observations from a re-analysis of the deposited data

How the results depend on the processing

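The number of members past 2-fold was the same under all 8 alternatives in all 5 comparisons, and the genes were the same: HLA-B and HLA-E in OIS against growing, HLA-C in H3.3cs1 late against growing and against H3.3cs1 early. Both changes of filter, the highest of a symbol's lines and no joined loci left the value of every kept member unchanged. They could not alter these calls, so only the pseudocount and the scalings put them to a check. HLA-B in OIS came nearest to the line, between 1.01 and 1.25 on the log2 scale. The members' median changed sign in 4 cases. For H3.3cs1 early against growing (-0.06) it was 0.20 when named genes were rescaled to 1 sum, 0.15 with quantile normalization and 0.00012 without joined loci. For H3.3cs1 late against H3.3cs1 early (0.15) it was -0.10 when rescaled to 1 sum. Without a change of sign it ranged from 0.36 to 0.67 in OIS against growing (0.60 as deposited), 0.21 to 0.25 in H3.3cs1 late against growing (0.21) and 0.084 to 0.39 in OIS against H3.3cs1 late (0.39), the lowest being with rescaling to 1 sum in the first and quantile normalization in the last. The highest for H3.3cs1 late against early was 0.26, with the filter at 5 FPKM. Leaving out joined loci removed HLA-F and TAPBP, and the filter at 5 FPKM removed NLRC5, whose highest level was 4.74 FPKM. For the other alternatives the cause was not tested.

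The rescaling to 1 sum was over named genes. Loci with no gene name, left out of that sum, held 57.9% of the summed FPKM in H3.3cs1 early and 49.0% in growing. Rescaling put the median of all gene names at -0.16 in OIS against growing and 0.19 in H3.3cs1 early against growing. It was -0.26 in H3.3cs1 late against early and -0.12 in OIS against H3.3cs1 late. The share of called gene names that were higher became 37.7% (52.8% as deposited) in OIS against growing, 48.3% (26.1%) in H3.3cs1 early against growing, 36.4% (61.7%) in late against early and 41.3% (56.8%) in OIS against H3.3cs1 late. With a pseudocount of 0.1 that share was 38.5% in H3.3cs1 early against growing and 50.6% in late against early. The number of gene names higher in H3.3cs1 early than growing was 437 with that pseudocount and 316 when rescaled, beside 171. The number higher in H3.3cs1 late than growing was 743 with that pseudocount, beside 428. The number lower in OIS than growing was 1523 with it, beside 995, and the number lower in late than early was 910 with it and 808 when rescaled, beside 414.

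No paired analysis was possible because each group has 1 library. For the same reason no library was left out, and no difference carries a replicate error. Without counts, no counting error can be given for NLRC5, TAP2 and other genes of low level.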
